A study of Solanum lycopersicum and Solanum pimpinellifolium with 30 samples.

Results

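The 5 genes described here are LOX1.1, TomloxE, loxC, Fad7 and ADH2 of tomato. They were grouped under the route from fatty acids to volatile aldehydes and alcohols of the ripe fruit, and their part in it was not tested. They were chosen by name: a probe set was taken where its symbol on the platform, or a synonym in the reference gene table, was one of these names. Each gene had 1 probe set, so 5 of the 10038 tested probe sets and 5 of the 802 genes named by the annotation were members. In the annotation LOX1.1 (synonyms loxA and tomloxA) has the NCBI gene number 543994, TomloxE (synonym cevi34) 543818, loxC (synonym TomloxC) 544008, Fad7 544203 and ADH2 544074.

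RNA came from the pericarp of fruit picked at the mature red stage from a field trial in Argentina, freed of the outer skin, the locules and the seeds. The Andean landraces of Solanum lycopersicum, 9 in number, were 3806, 3815, 3836 and 3842 and, with shorter numbers, 549, 557, 560, 571 and 572. Beside them stood LA1589, an accession of the wild currant tomato Solanum pimpinellifolium. No group carried a treatment or a transgene. Each of the 10 cultivars had 3 biological replicates, each on 1 Affymetrix tomato array, and LA1589 is 1 accession, so it stands for no other wild plant. Which field plot, and how many fruits, made up a replicate is not given, and p-values measure the spread between these samples. In whole tissue, a lower signal from fewer cells that use a gene and from less RNA in each cell cannot be told apart.

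In plants, membrane lipids release linoleic and linolenic acid, and lipoxygenases add oxygen to them to form hydroperoxides. A hydroperoxide lyase cleaves these to short aldehydes with a green, grassy smell, and alcohol dehydrogenase turns aldehydes into alcohols, which an acyltransferase can join to acids as esters. In tomato fruit the plastid lipoxygenase loxC is known for feeding this aldehyde route, while LOX1.1 encodes a lipoxygenase that acts at the other position of the fatty acid and is not tied to the green-leaf volatiles. Fad7 is a plastid desaturase that makes linolenic from linoleic acid, and ADH2 is the alcohol dehydrogenase of ripening fruit.

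Values are log2 signals after quantile normalisation, and the array background is the percentile 95 of 63 probe sets for foreign reporter sequences on the same array. Arrays carry no counts, so their number limits the precision. The fruit markers PG2, E8, Psy1, RIN and TDR4, 5 of 6 listed, lay above background on all 30 arrays. The seed gene TAS14, 1 of 5 listed, did so on 7 arrays, and the epidermis genes LE16 and TSW12, 2 of 4 listed, on 4 and 1. Landrace 557 stood apart from the others, with 48.5% of probe sets above background against 58.2% to 72.0% in the other cultivars, and with a background of 2.41 on replicate 1 against 1.34 or less on all arrays other than that one. The mean of 18 spiked control probe sets, taken from the values as deposited, ran from 8.24 in 571 to 10.33 in 557. It was 10.23 in 572, 9.65 in 3836 and 9.62 in LA1589. Differences among landraces were tested with the moderated F test of limma over their 27 arrays. LA1589 was set against the average of the 9 landrace means in a limma fit of all 30 arrays, and the 45 pairs of cultivars were compared in that same fit. Adjusted p-values are Benjamini-Hochberg values over all tested probe sets (for the pairs, over all pairs and probe sets together), with a threshold of 0.05.

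All 5 genes differed among the landraces. The range of the 9 landrace means was 4.15 for LOX1.1, 3.60 for loxC, 3.46 for Fad7, 3.31 for TomloxE and 1.01 for ADH2. Over all probe sets 39.1% passed this test, and the median range was 0.89. The 5 genes also passed without landrace 557, with adjusted p from 4.37e-06 for Fad7 to 0.021 for LOX1.1. However, LOX1.1 did not pass the limma F test without landrace 572 (adjusted p = 0.125) or without 560 (adjusted p = 0.0572). TomloxE and Fad7 were higher in LA1589 than in the landraces, and both calls depended on single LA1589 arrays. The cultivars did not line up in 1 order for the 5 genes: landrace 572 had the highest means of TomloxE and loxC and the lowest of LOX1.1, and landrace 560 the highest mean of LOX1.1 and the lowest of TomloxE and ADH2.

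**Figure D1:**
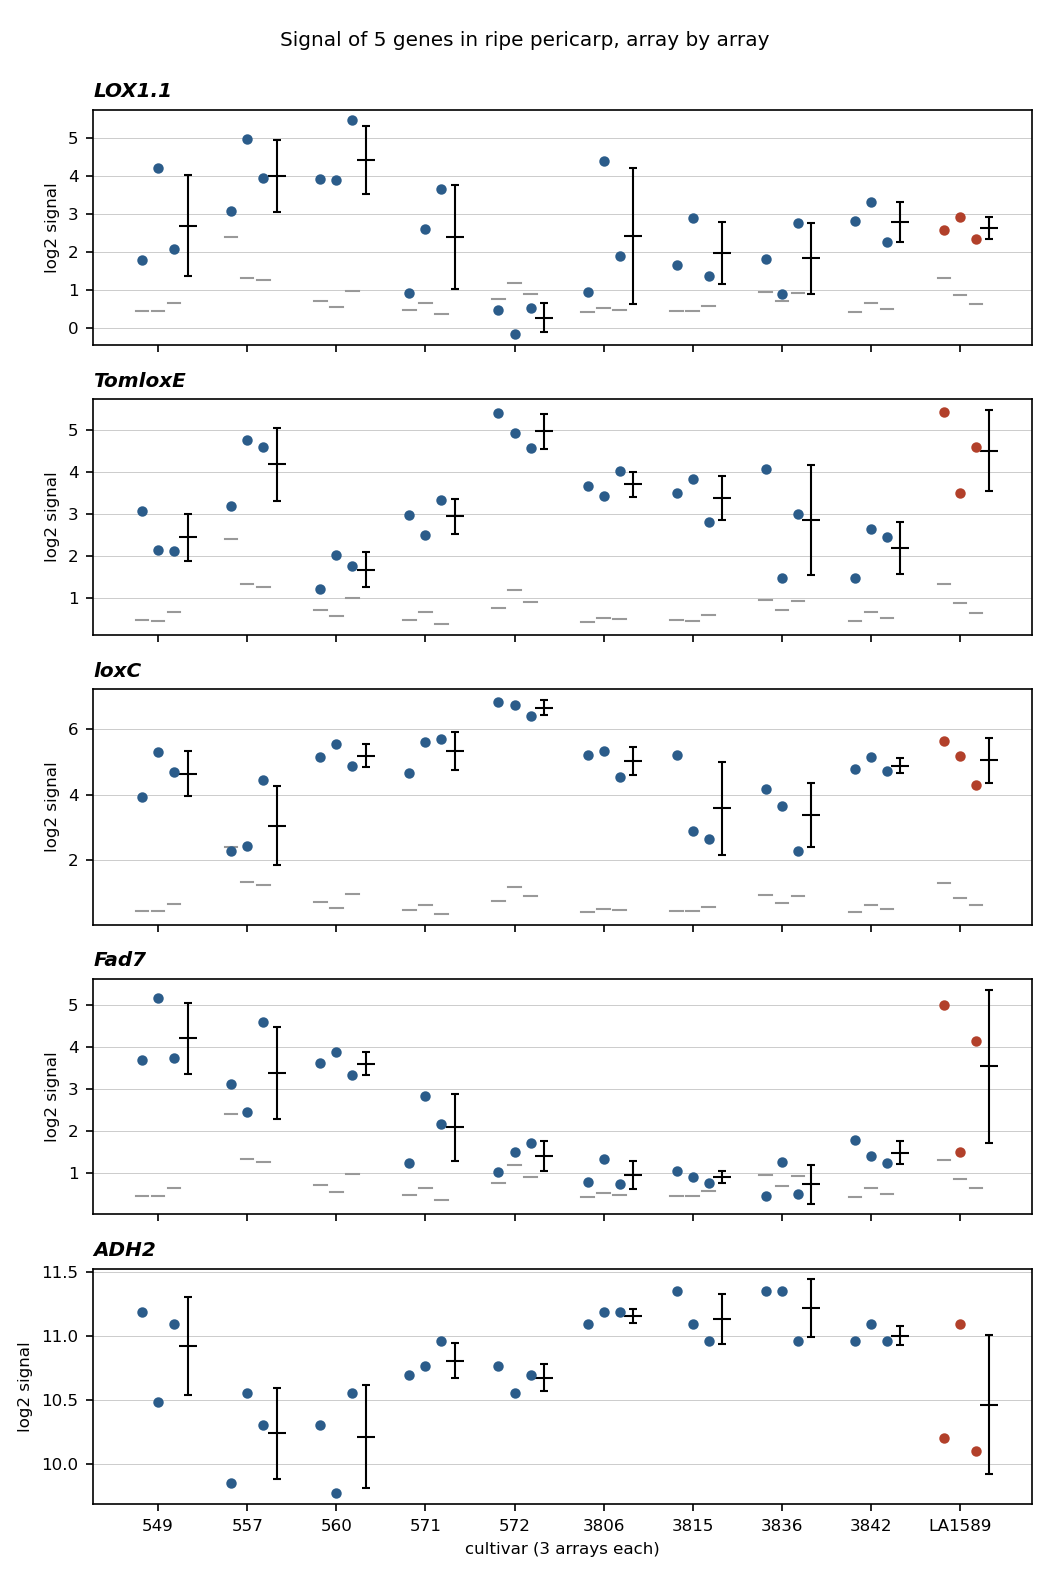
Log2 signal (vertical axis) of the 5 genes on each of the 30 arrays, by cultivar (horizontal axis). Dots are arrays (blue landraces, red LA1589), black marks are the mean and SD of 3 arrays, and grey ticks are the background of each array, left out for ADH2, whose lowest array was 9.77. The 3 arrays of 572 lie under their background for LOX1.1, and those of 549, 557 and 560 stand high for Fad7.

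LOX1.1, also called loxA, had its lowest level in landrace 572, where the 3 arrays read 0.48, -0.16 and 0.53 against backgrounds of 0.76, 1.19 and 0.90. No array of 572 was therefore above background, while all 27 arrays of the other cultivars were. The highest levels were in 560, with 3.93, 3.91 and 5.47, and in 557, with 3.09, 4.98 and 3.96. These groups do not overlap with 572. With 572 raised to its background, LOX1.1 was at least 11.2-fold higher in 560 than in 572 (limma F test over the landraces, adjusted p = 0.00946).

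The other cultivars lay between, and their replicates were far apart. The arrays read 1.79, 4.23 and 2.10 in 549, and 0.94, 2.60 and 3.66 in 571. In 3806 they read 0.97, 4.41 and 1.92, and in 3815 1.68, 2.91 and 1.37. Replicate 2 of 549 and of 3806 thus reached the level of 560 while the other arrays of these landraces did not. The arrays of 3836 read 1.82, 0.92 and 2.78, and those of 3842 2.81, 3.33 and 2.27. LA1589 was the least variable, with 2.59, 2.94 and 2.36 (SD 0.29, against 1.78 in 3806).

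In the order of the means, 572 (0.28 ± 0.38, SD, n = 3 arrays as for all means here) was followed by 3836 (1.84 ± 0.93), 3815 (1.98 ± 0.82), 571 (2.40 ± 1.37), 3806 (2.43 ± 1.78), LA1589 (2.63 ± 0.29), 549 (2.71 ± 1.33), 3842 (2.80 ± 0.53), 557 (4.01 ± 0.94) and 560 (4.44 ± 0.90). None of the 9 neighbours in this order differed in limma (lowest adjusted p = 0.246, with 0 at an unadjusted p under 0.05). Of the 45 pairs 6 passed, where 9.06% of all pairs of all probe sets did: 572 was lower than 549, 557, 560 and 3842, and 3815 and 3836 were lower than 560. The F test call rested on 572 and 560. Without landrace 572 the range was 2.60 (adjusted p = 0.125), and without landrace 560 it was 3.72 (adjusted p = 0.0572). With the spiked controls as a covariate the range was 6.43 (adjusted p = 0.00348). The number of passing pairs was 3 without any 1 of these arrays: replicate 1 of 560, replicate 2 of 571, each replicate of 572, replicate 1 of 3836 and each replicate of 3842. It was 10 without replicate 2 of 3806.

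TomloxE, a lipoxygenase gene also listed under the synonym cevi34, was above background on all 30 arrays. It was highest in 572, with 5.42, 4.93 and 4.59, and lowest in 560, with 1.21, 2.03 and 1.77. The arrays of these landraces do not overlap, and the means, 4.98 ± 0.42 and 1.67 ± 0.42, differ 9.93-fold (limma F test over the landraces, adjusted p = 0.000517). The second highest landrace was 557, with 3.19, 4.76 and 4.61. Its replicate 1, the array with the high background, was its lowest for this gene.

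The arrays of 3806 read 3.68, 3.44 and 4.03, and those of 3815 3.50, 3.84 and 2.81. Landrace 571 gave 2.98, 2.51 and 3.34, with an SD of 0.42. Landrace 3836 was uneven, with 4.09, 1.48 and 3.0. Low levels were seen in 549, with 3.09, 2.14 and 2.12, and in 3842, with 1.48, 2.64 and 2.46. By mean the order was 560, 3842 (2.19), 549 (2.45), 3836 (2.86), 571 (2.94), 3815 (3.38), 3806 (3.72), 557 (4.19), LA1589 (4.51) and 572.

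None of the 9 neighbours in the order of TomloxE differed (limma, lowest adjusted p = 0.677, with 0 at an unadjusted p under 0.05). Of the 45 pairs 13 passed. Landrace 572 was higher than 549, 560, 571, 3836 and 3842, and both 557 and LA1589 were higher than 549, 560 and 3842. Landrace 560 was also lower than 3806 and 3815. Without landrace 572 the range was 2.52 (adjusted p = 0.0109). TomloxE followed the spiked controls over the 10 cultivar means, with a Pearson r of 0.71 and a Spearman rho of 0.58, and r was 0.62 without 560 and 572. Both were read on the same arrays, the controls as deposited and TomloxE after quantile normalisation, and this is a description. Deviations of the arrays from their cultivar means had an r of 0.16. With these controls as a covariate the landrace range was 3.33 (limma F test, adjusted p = 0.0137), against 3.31 without them. Only 2 of the 45 pairs then passed. Such pair counts also fell for loxC (9 to 5), Fad7 (20 to 10) and ADH2 (9 to 3), and rose for LOX1.1 (6 to 8). The summed level of the 5 fruit markers ran the other way (r = -0.69, rho = -0.74), from 10.31 ± 0.29 in LA1589 and 10.55 ± 0.29 in 572 to 11.56 ± 0.21 in 549 and 11.56 ± 0.10 in 3842, and its part in the result was not tested. The single markers did not share 1 order. E8 and TDR4 were lowest in LA1589, but RIN was highest there (8.24) and lowest in 572. PG2 was lowest in 3815 and Psy1 in 560. With the same sum r was 0.25 for LOX1.1, 0.01 for loxC, 0.06 for Fad7 and 0.34 for ADH2.

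The plastid lipoxygenase gene loxC was highest in 572, with 6.83, 6.75 and 6.39. All 3 arrays lay above every array of every other cultivar, of which the highest was 5.71 in 571. The lowest mean was that of 557, with 2.29, 2.45 and 4.44. Replicate 1 of 557 fell under its own background of 2.41. The means, 6.66 ± 0.23 and 3.06 ± 1.2, differ 12.1-fold, and 11.8-fold with that array raised to its background (limma F test over the landraces, adjusted p = 0.000998).

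Landraces 3815 and 3836 were also low and uneven. Their arrays read 5.20, 2.91 and 2.64 in 3815 and 4.19, 3.65 and 2.30 in 3836. Replicate 1 of each was its highest array, and both lay within the span of the arrays of the middle cultivars. Those were closer together: the arrays read 5.14, 5.56 and 4.86 in 560, and 4.66, 5.62 and 5.71 in 571. In 3806 they read 5.21, 5.33 and 4.53, and in 3842 4.79, 5.17 and 4.72. Landrace 549 gave 3.94, 5.30 and 4.69 and LA1589 5.64, 5.20 and 4.31. From 549 (mean 4.65) to 571 (mean 5.33) these 6 cultivars thus covered 0.69 on the log2 scale, less than the SD of 3815, 1.41.

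In limma none of the 9 neighbours in the order of loxC differed (lowest adjusted p = 0.181, for 571 and 572, with 1 at an unadjusted p under 0.05). Of the 45 pairs 9 passed. Landrace 572 was higher than 549, 557, 3815 and 3836, and 557 was lower than 560, 571, 3806 and LA1589 as well. Landrace 3836 was lower than 571. Single arrays moved this count, to 23 without replicate 1 of 3815, to 15 without replicate 3 of 557 and to 5 without replicate 2 of 557. The range was 4.29 without replicate 3 of 557 and 2.27 without landrace 572 (adjusted p = 0.0213). With the spiked controls in the fit it was 4.25 (adjusted p = 0.000628), with 5 pairs past the threshold. In the reference assembly SLM_r2.1 a further lipoxygenase gene, loxF, is separated from loxC by 1 annotated gene, and whether the loxC probes also read its transcript was not tested.

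**Figure D2:**
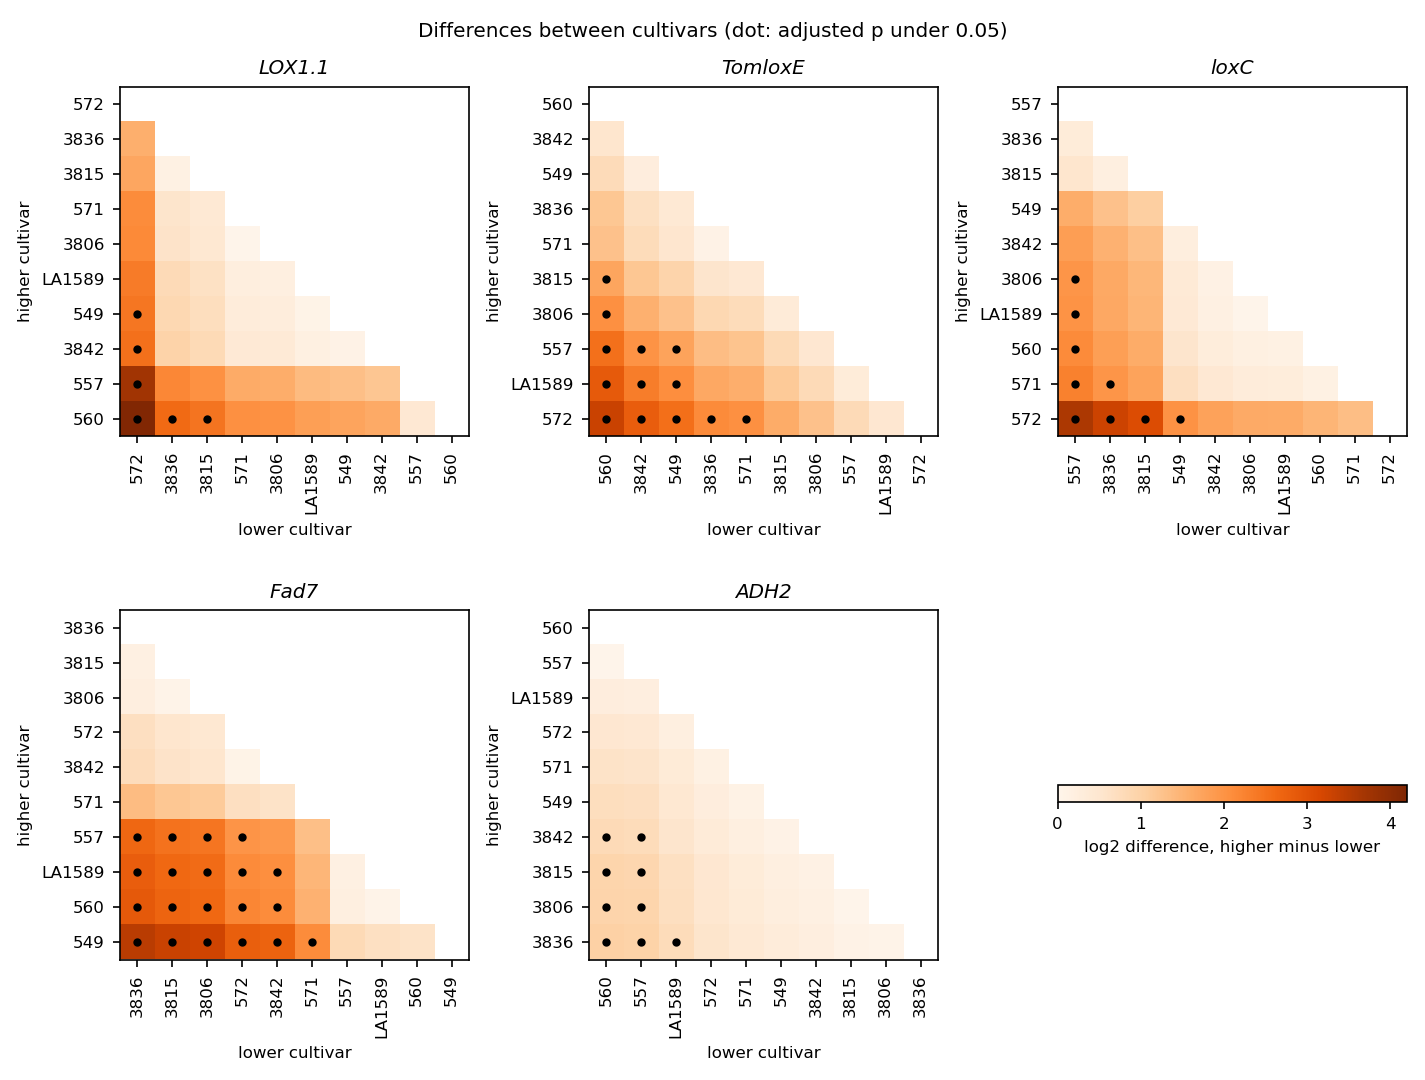
Differences between cultivar means for each gene, with cultivars in order of their mean on both axes (lower cultivar across, higher cultivar down), the shade giving the log2 difference and a dot marking an adjusted p under 0.05. The dots number 6 for LOX1.1, 13 for TomloxE, 9 for loxC, 20 for Fad7 and 9 for ADH2, and those of Fad7 fill a block of 4 higher against 6 lower cultivars except for 4 cells.

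Fad7, the plastid desaturase gene, was high in 3 landraces and in LA1589 and low in the other 6 landraces. The arrays read 3.70, 5.18 and 3.74 in 549, 3.61, 3.87 and 3.33 in 560, and 3.13, 2.45 and 4.59 in 557. In the 3836 fruit it was lowest, with 0.45, 1.28 and 0.50, and replicates 1 and 3 lay under backgrounds of 0.96 and 0.93. With these arrays raised to background, Fad7 was at least 8.88-fold higher in 549 (4.21 ± 0.84) than in 3836 (limma F test over the landraces, adjusted p = 1.1e-05).

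The other low landraces were little above background. The arrays read 0.80, 1.35 and 0.74 in 3806, and 1.04, 0.91 and 0.76 in 3815. In 572 they read 1.03, 1.51 and 1.72, and in 3842 1.79, 1.42 and 1.25. None of these 12 arrays reached the lowest array of 557. The arrays of 557 had higher backgrounds, however, at 2.41, 1.34 and 1.27, against 0.44, 0.66 and 0.52 in 3842. Replicates 1 and 2 of 557, at 3.13 and 2.45, were therefore also little above background. Landrace 571 lay between, with 1.25, 2.84 and 2.18, and its replicate 2 overlapped with 557. LA1589 was split, with 5.0 and 4.14 on replicates 1 and 3 and 1.5 on replicate 2, so that 1 of its arrays lay among the low landraces.

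In the order of the means the widest gap, 1.3, separated 571 (2.09) from 557 (3.39), and it did not pass (limma adjusted p = 0.212). None of the 9 neighbours differed, with 1 at an unadjusted p under 0.05, yet 20 of the 45 pairs passed, against a median of 1 over all probe sets. Each of 549, 557, 560 and LA1589 was higher than 572, 3806, 3815 and 3836. Landraces 549 and 560 and LA1589 were also higher than 3842, and 549 was higher than 571. No pair among 549, 557, 560 and LA1589 passed. Of the variation of Fad7 over the 27 landrace arrays, 86.7% lay between landraces, against 62.8% for LOX1.1, 73.3% for loxC, 75.3% for ADH2 and 75.9% for TomloxE. The range of Fad7 was 3.34 when the spiked controls entered the fit (adjusted p = 2.16e-05), and 10 pairs then passed.

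The summed level of the photosynthesis genes PETE, PSBO and PSBR, 3 of 8 listed, was given beside Fad7 because the product of this gene works in plastids. It was 10.46 ± 0.27 in 560 and 10.02 ± 0.20 in 549, the highest of the 10 cultivars, but 8.67 ± 0.47 in 557 and 8.91 ± 0.50 in LA1589, and 7.84 ± 1.18 in 3815, the lowest. Over the 10 cultivar means r with Fad7 was 0.58 and rho 0.78. Without 549 and 560 r was 0.21, so that the linear relation rests on these landraces. For loxC, also a plastid enzyme gene, r was 0.42 and rho 0.52, and r was 0.67 without 557 and 572. For TomloxE and LOX1.1 r was -0.65 and 0.47 and rho -0.54 and 0.58, and without 560 and 572 r was -0.56 and 0.24. For ADH2 r was -0.36 and rho -0.48, and r was -0.26 without 557 and 560.

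ADH2, the alcohol dehydrogenase gene of the ripe fruit, varied least of the 5 genes. All its arrays lay between 9.77 and 11.35. At this high level quantile normalisation gave several arrays the same value. Replicates 1 and 2 of 3836, both at 11.35, were 11.21 and 11.31 as deposited. With the values as deposited the landrace range was 0.98 (limma F test, adjusted p = 0.000434). A limit at the top of the signal scale was not tested. The lowest landraces were 560, with 10.30, 9.77 and 10.56, and 557, with 9.85, 10.56 and 10.30. The highest was 3836, with 11.35, 11.35 and 10.96, followed by 3806, with 11.09, 11.19 and 11.19, and 3815, with 11.35, 11.09 and 10.96. No array of 557 or 560 reached the lowest array of these 3 landraces. The means of 3836 and 560, 11.22 ± 0.22 and 10.21 ± 0.40, differ 2.02-fold (limma F test over the landraces, adjusted p = 0.00173).

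The arrays of 3842 read 10.96, 11.09 and 10.96, and those of 571 10.70, 10.77 and 10.96. Landrace 549 had 2 arrays at 11.19 and 11.09 and 1 at 10.48, and 572 gave 10.77, 10.56 and 10.70. LA1589 read 10.20, 11.09 and 10.10, so that its replicate 2 was at the level of the high landraces. None of the 9 neighbours in the order of ADH2 differed in limma (lowest adjusted p = 0.689, with 0 at an unadjusted p under 0.05). Of the 45 pairs 9 passed: 557 and 560 were each lower than 3806, 3815, 3836 and 3842, and LA1589 was lower than 3836. This count was 5 without replicate 1 of 557 or without replicate 2 of 560, 15 without replicate 2 of LA1589, 6 with the replicate number as a block and 3 with the spiked controls as a covariate.

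Fad7 and ADH2 ran in opposite directions over the cultivars. The 4 cultivars with high Fad7 held the 3 lowest means of ADH2, those of 560, 557 and LA1589, while 549 had high Fad7 and an ADH2 of 10.92. Over the 10 cultivar means r was -0.73 and rho -0.75, and without 549 and 560 r was -0.92. The deviations of the 30 arrays from their cultivar means had an r of -0.56. In LA1589 the array with the lowest Fad7, 1.5, had the highest ADH2, 11.09, and in 549 the array with the highest Fad7, 5.18, had the lowest ADH2, 10.48. LA1589 had the widest spread of Fad7 (SD 1.82), so its arrays weigh heavily in this r, which was not computed without them. Not all cultivars ran this way. In 3815 the arrays fell together, from 1.04 to 0.91 and 0.76 for Fad7 and from 11.35 to 11.09 and 10.96 for ADH2. In 571 the array with the lowest Fad7, 1.25, had the lowest ADH2, 10.70. These correlations describe signals read on the same arrays, and 10 relations between the 5 genes were computed.

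**Figure D3:**
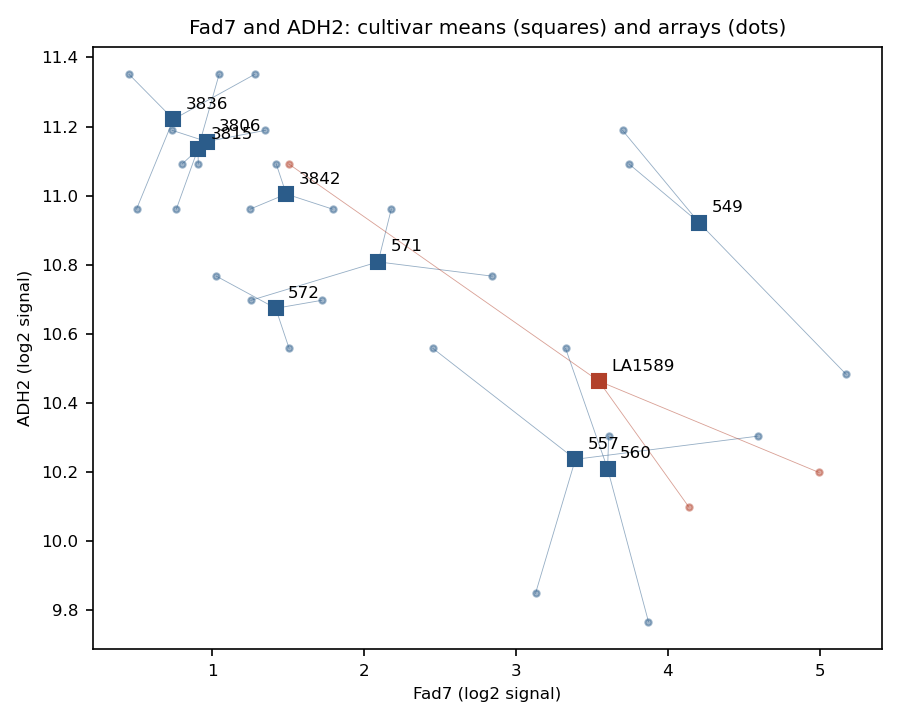
Fad7 (horizontal axis) against ADH2 (vertical axis), both as log2 signal. Squares are cultivar means, small dots the 3 arrays of each, joined to their mean by lines (blue landraces, red LA1589). Landraces 557 and 560 lie at the lower right, 3806, 3815 and 3836 at the upper left, and 549 at the upper right.

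Other pairs of members were described in the same way. LOX1.1 and Fad7 had an r of 0.61 and a rho of 0.72 over the 10 cultivar means, and r was 0.62 without 560 and 572. LOX1.1 and ADH2 had an r of -0.55 and a rho of -0.55, and r was -0.82 without the same landraces. For LOX1.1 and TomloxE r was -0.51 and rho -0.47, but without 560 and 572 r was 0.33, so the sign rests on these landraces. The lipoxygenase genes TomloxE and loxC, both highest in 572, had an r of 0.16 and a rho of 0.14, and r was -0.17 without 560 and 572.

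The second question was how the wild accession differs from the landraces. Of the 5 genes 2 were higher in LA1589, 0 were lower (limma, with 0 lower at an unadjusted p under 0.05) and 3 did not pass. Over all probe sets 8.58% were higher and 6.96% lower. The log2 difference of TomloxE was 1.36 ± 0.40 (SE of the fit, 3 against 27 arrays, limma adjusted p = 0.0212), with 5.44, 3.50 and 4.60 in LA1589 against a landrace mean of 3.15. Its LA1589 mean lay above 8 of the 9 landraces, and its 3 arrays did not overlap with those of 4 landraces. The arrays of 572, as given above, lay within those of LA1589.

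Fad7 was higher by 1.46 ± 0.45 in LA1589 (limma adjusted p = 0.0296), with a mean of 3.55 ± 1.82 against 2.09. The LA1589 mean lay above 7 landraces and under 549 and 560, and its arrays overlapped with those of all landraces except 3. LOX1.1 (0.09 ± 0.58, adjusted p = 0.946), loxC (0.41 ± 0.44, adjusted p = 0.617) and ADH2 (-0.35 ± 0.18, adjusted p = 0.20) did not pass in limma.

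Neither call held when the spread between landraces was the error. With 1 mean per cultivar the adjusted p was 0.735 for TomloxE and 0.792 for Fad7. Without replicate 1 of LA1589 the difference was 0.90 for TomloxE (adjusted p = 0.274) and 0.73 for Fad7 (adjusted p = 0.442), and without replicate 3 it was 1.32 (adjusted p = 0.0906) and 1.16 (adjusted p = 0.199). Without replicate 2 it was 1.87 for TomloxE (adjusted p = 0.00653) and 2.48 for Fad7 (adjusted p = 0.000161). ADH2 then fell by 0.67 and passed (adjusted p = 0.0159). Once the spiked controls entered the fit the differences were 1.2 and 1.33 (adjusted p = 0.0985 and 0.111), and with array weights TomloxE differed by 1.17 (adjusted p = 0.119). Without landrace 560 TomloxE did not pass (1.18, adjusted p = 0.058). Fad7 did not pass without 572, 3806, 3815, 3836 or 3842 (adjusted p from 0.0503 to 0.0699).

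**Figure D4:**
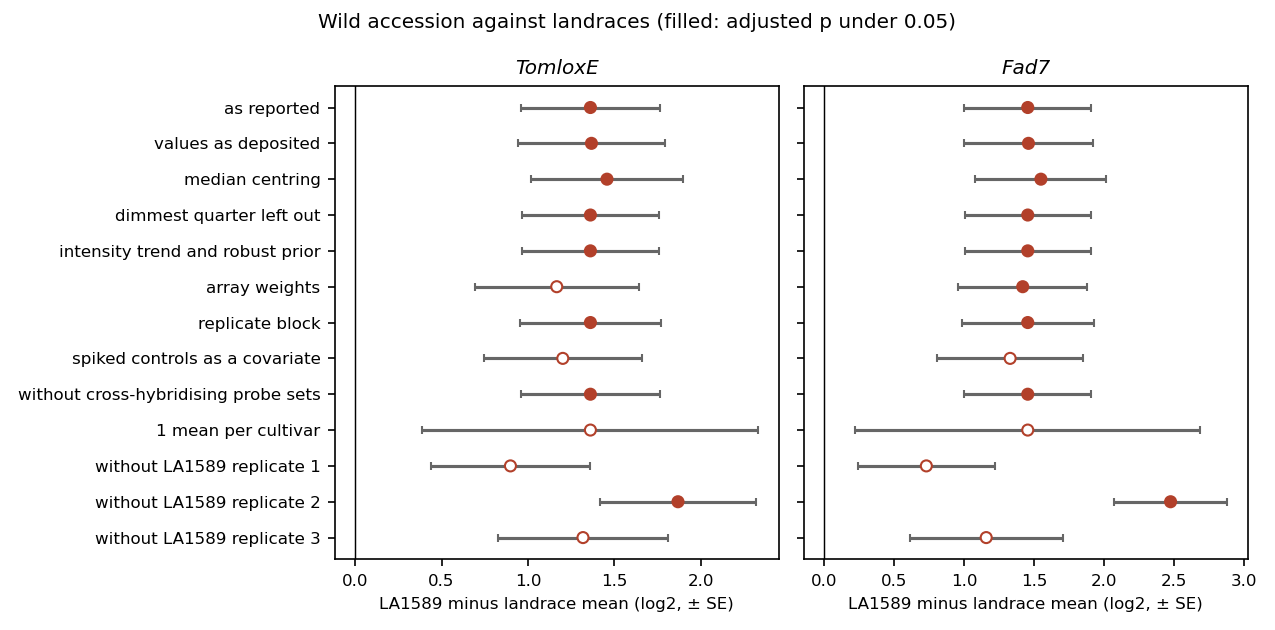
Difference of LA1589 from the landrace mean (horizontal axis, log2, with SE bars) for TomloxE and Fad7 under each way of processing and without each LA1589 array (vertical axis). Filled points have an adjusted p under 0.05. All points lie above 0, and for Fad7 they run from 0.73 without replicate 1 to 2.48 without replicate 2.

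Other genes of the same route were taken from a list of names, and 15 were found (DAD1 matched by its symbol too, and was left out since that name is used for an unrelated gene). They were the lipoxygenases LOXB and loxD, hydroperoxide lyase HPL, the divinyl ether synthase DES, the jasmonate route genes AOS, AOC, OPR1, opr2 and OPR3, the phospholipase D genes PLDa1, PLDa2, PLDa3, PLDb1 and PLDb2, and the ester-forming alcohol acyltransferase AAT. Of these 15 genes 7 passed the F test among landraces and 8 did not, beside 5 of 5 members and 39.1% of all probe sets. Their median range was 1.1, against 3.46 for the members and 0.89 for all probe sets. Members and list were chosen with earlier results of these data known, so this comparison is a description. Of the 15 genes 7 lay above background on fewer than 15 of the 30 arrays, while each member did so on 27 or more.

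The passing genes were AAT, loxD, HPL, AOC, LOXB, OPR3 and PLDa1. LOXB, a fruit lipoxygenase gene known also as tomloxB, was lowest in 560 (9.02 ± 0.33) and highest in 3836 (10.72 ± 0.32, limma adjusted p = 0.000365), the same end points as ADH2. Over the 10 cultivar means r of LOXB with ADH2 was 0.75 and rho 0.79, and r was 0.31 without 557 and 560, so the relation rests on these landraces. HPL, which cleaves the hydroperoxides made by loxC, ran from 4.99 ± 1.25 in 3815 to 7.08 ± 0.18 in 3842 (adjusted p = 0.0157). It was 5.21 ± 0.16 in 572, where loxC was highest, and r of HPL with loxC was 0.01 over the cultivar means (rho -0.01) and 0.52 without 557 and 572.

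AOC ran from 1.04 to 2.93 (adjusted p = 0.0384), OPR3 from 0.68, with 1 of 3 arrays above background, to 2.38 (adjusted p = 0.0142), and PLDa1 from 3.73 to 5.08 (adjusted p = 0.014). For loxD the highest mean was 2.31 in 3806 and the lowest lay under background (adjusted p = 0.0193). DES, AOS, opr2, OPR1, PLDa2, PLDa3, PLDb1 and PLDb2 did not pass, with adjusted p from 0.113 for PLDa2 to 0.989 for AOS. AAT, which makes esters from the alcohols that ADH2 supplies, was 0.74 ± 0.27 in 572, whose LOX1.1 arrays lay at background, and 9.09 or more elsewhere. Its F test call rested on 572, without which the range was 0.35 (limma adjusted p = 0.732). Calls were also lost for AOC without 549, 560, 3815 or 3836, for PLDa1 without 557 or 560, for HPL without 560 or 3842 and for loxD without 3806. Of the 15 genes AAT alone was higher in LA1589 and 0 were lower (limma, with 1 lower at an unadjusted p under 0.05, loxD). The AAT difference was 1.44 ± 0.16 (limma adjusted p = 7.64e-07), and without landrace 572 it was 0.49 ± 0.16 (limma adjusted p = 0.0406).

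**Figure D5:**
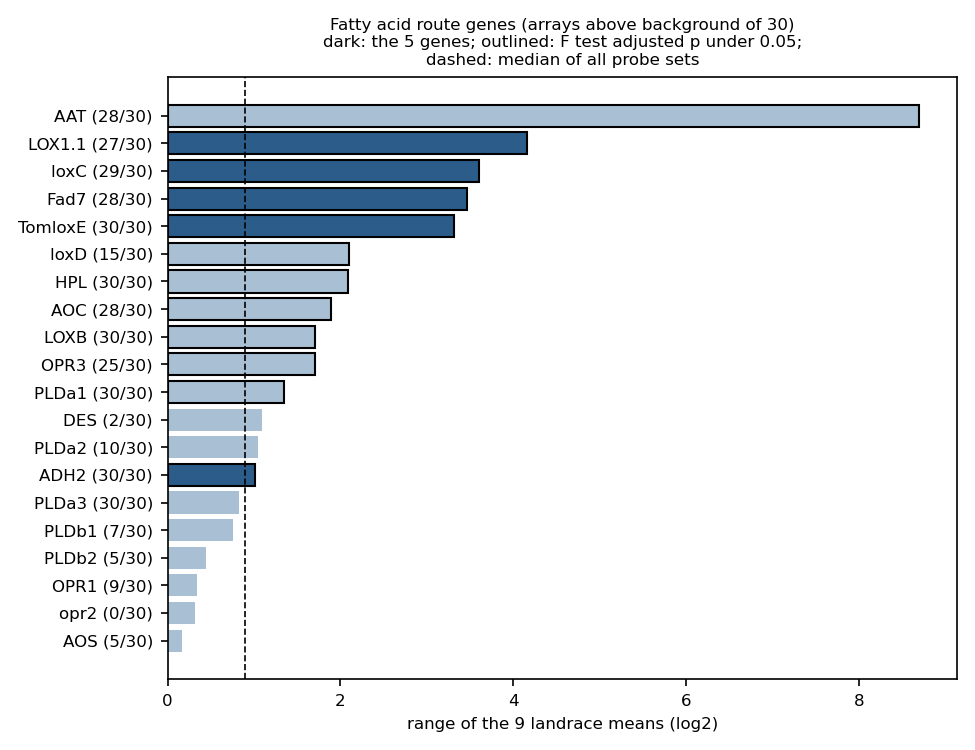
Range of the 9 landrace means (horizontal axis, log2) for the 5 genes (dark bars) and 15 other genes of the route (light bars), with the number of arrays above background beside each name. Outlined bars have an F test adjusted p under 0.05, and the dashed line is the median of all probe sets, 0.89.

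The named genes most like each member were found by Pearson r over the 10 cultivar means among 360 probe sets whose means spanned at least 1 and which lay above background on at least 15 arrays. The closest to ADH2 were MTSHP, a mitochondrial small heat shock protein gene (r = 0.94, rho = 0.88), ERABP1, an auxin-binding protein gene (0.93 and 0.95), and RAN2A, a Ran GTPase gene (0.93 and 0.85), all of them lowest in 560 or 557. For TomloxE they were LHA1, a plasma membrane proton pump gene (r = 0.93, rho = 0.90), EIL3 of ethylene signalling (0.91 and 0.90) and PGH1, an enolase gene (0.87 and 0.75). All 3 were lowest in 560. Without 560 and 572 r was 0.84, 0.93 and 0.73.

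For Fad7 the closest were CAB4, a chlorophyll-binding protein gene (r = 0.89, rho = 0.89), CIP1 (0.88 and 0.84) and Rab11a, a small GTPase gene (0.87 and 0.83). CAB4 had its highest mean, 3.89, in 549, as Fad7 did. LOX1.1 was less closely matched, by PR-P2, a pathogenesis-related protein gene (r = 0.80, rho = 0.79), FKBP12, an immunophilin gene (0.79 and 0.59), and the proline transporter gene ProT1 (0.78 and 0.62), of which r was 0.57, 0.63 and 0.64 without 560 and 572. The closest to loxC were TUB, a tubulin gene (r = 0.71, rho = 0.72), the MADS-box gene TDR6 (0.69 and 0.66) and gtsatom (0.68 and 0.56), all highest in 572. For TDR6 r was 0.10 without 557 and 572. These are descriptions over cultivar means read on the same arrays, with the highest of many r chosen for each gene.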

How the data were processed

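The deposited table holds log2 signals of 10209 probe sets on 30 arrays, already processed by the authors. How they were corrected for background, summarised and normalised, and with which software, is not given in the sources used here. No source names the log base, which was taken as 2. Biotinylated cRNA was made by the Affymetrix protocol, per the labels. Deposited array medians ran from 1.26 to 1.76, and all arrays were therefore quantile normalised. The 171 control probe sets were left out of the tests.

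Gene names are those of the platform annotation of the array, and 885 of 909 named probe sets matched the gene table of assembly SLM_r2.1. The members, lists, tests and the rule for like genes were chosen with earlier results of these data known. Fits used limma 3.58.1 in R 4.3.3 with a fitted mean for each cultivar, the arrays as replicates and empirical Bayes variances, and were tested on simulated data. Other values used Python 3.11.15, numpy 2.4.6, pandas 2.3.3 and scipy 1.17.1, and figures matplotlib 3.10.9. Where arrays of the lower side lay under background they were raised to it, and the fold is a bound. The alternatives were other scalings, a filter on dim probe sets, a trended robust prior, array weights, a replicate block, the spiked controls as a covariate, leaving out probe sets marked for cross-hybridisation, 1 mean per cultivar and leaving out arrays. Leaving out landraces was added after the data were seen. So were 3 checks of the pair counts: the spiked controls as a covariate, leaving out probe sets marked for cross-hybridisation, and leaving out arrays. Probe, promoter and protein sequences were not used here.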

Additional observations from a re-analysis of the deposited data

How the results depend on the processing

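Among landraces the 5 genes passed under all 8 other ways of processing and without any 1 array. LOX1.1 alone lost the threshold without a landrace, 560 (range 3.72) or 572 (2.60). With median centring 6074 of all probe sets passed the F test, against 3921. Against LA1589, the unpassed LOX1.1 difference changed sign with the values as deposited (-0.036), with the spiked controls as a covariate (-0.53) and without landrace 572 (-0.19), and lay between -0.067 and 0.223 without 1 array. TomloxE did not pass with array weights (1.17), the spiked controls (1.2), 1 mean per cultivar (1.36) or without 560 (1.18), and ran from 0.90 to 1.87 without 1 array. Fad7 did not pass with the spiked controls (1.33), 1 mean per cultivar (1.46) or without 572 (1.37), 3806 (1.31), 3815 (1.31), 3836 (1.29) or 3842 (1.38), and ran from 0.73 to 2.48. ADH2 ran from -0.67 to -0.17 without 1 array. Of the 5 genes 1 passed with array weights or without any 1 of these 6 landraces, 0 with the spiked controls or 1 mean per cultivar, and 0 to 3 without 1 array. Of all probe sets 111 passed with 1 mean per cultivar and 888 to 1774 without 1 array. With the spiked controls the passing pairs were 2 for TomloxE, 5 for loxC, 10 for Fad7 and 3 for ADH2. Without 1 array they were 3 to 10 for LOX1.1, 10 to 17 for TomloxE, 5 to 23 for loxC, 17 to 23 for Fad7 and 5 to 15 for ADH2. The cause of these changes was not tested.

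The replicate numbers did not pair the arrays: of 135 same-numbered pairs of different cultivars 22 had deviations correlated above 0.1, with a median r of -0.01. With the replicate number as a block the 5 genes still passed among landraces, 3803 of all probe sets passed, and the LA1589 calls for TomloxE (adjusted p = 0.0262) and Fad7 (0.0396) were kept, with 7, 11, 9, 19 and 6 passing pairs for LOX1.1, TomloxE, loxC, Fad7 and ADH2. The mean of several probe sets was not run, as each gene had 1. Low LOX1.1 and Fad7 signals are limited by background.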

Other observations

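Replicates of 1 cultivar also varied together in other genes of the route. Over the deviations of the 30 arrays from their cultivar means, loxC and HPL had an r of 0.62, and ADH2 and LOXB an r of 0.65. In 3815, replicate 1 was highest for loxC (5.20) and for HPL (6.36), while HPL read 3.90 and 4.72 on the other arrays. For TomloxE r was 0.05 with HPL and 0.11 with LOXB. Deviations of LOX1.1 had an r of 0.41 with those of the spiked controls, and deviations of loxC an r of -0.39.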
